A study of Picromerus lewisi with 6 samples.

Results

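Fatty acids are stored, built and burned by sets of enzymes that work in different parts of the cell, and 79 transcript clusters for such enzymes were followed in the venom glands of the predatory stink bug Picromerus lewisi. They were chosen by text. The first protein match of each names Halyomorpha or Nezara, 2 related stink bug genera, and its Swiss-Prot match names an acyl-CoA, fatty acid, carnitine or lipid droplet protein. They are 79 of 22242 clusters in the table and of 11822 clusters whose first protein match names those genera. By role, 24 belong to synthesis (acetyl-CoA carboxylase, fatty acid synthase, chain elongation and desaturation) and 23 to oxidation (the carnitine shuttle, dehydrogenases and later steps). A further 8 are fatty acyl-CoA reductases and a wax acyltransferase, 8 take up or activate fatty acids, 5 are acyl carriers, 3 coat lipid droplets, and 8 have other roles.

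The study compared venom glands of adults with those of nymphs in the 5th instar, the last juvenile stage, in 3 RNA-seq libraries each. Beyond tissue and stage the labels describe no sex, diet or rearing, and whether each library is a different animal or a pool is not said, so the spread between libraries may be technical. Each cluster is named after its best match in other species, and several clusters can be pieces of 1 gene.

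In animals, acetyl-CoA carboxylase makes malonyl-CoA and fatty acid synthase joins it into palmitate in the cytosol. Elongases and desaturases of the endoplasmic reticulum then lengthen the chain and add double bonds. For oxidation, a fatty acid is tied to coenzyme A, carried into the mitochondrion on carnitine, and shortened by repeated dehydrogenation, hydration, a second dehydrogenation and thiolysis. Malonyl-CoA inhibits carnitine palmitoyltransferase 1, which links both directions. In insects the fat body is the main site of lipid storage, and oenocytes make cuticular lipids.

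Levels are given as FPKM, a fragment number corrected for length and for the size of the library. Whole fragments could be read back from the steps between low values, and each library held 13333499 to 18660013 of them over clusters no shorter than 400 bases. For a cluster of 1000 bases, 1 FPKM stands for 9.93 to 13.5 fragments. The libraries differed in breadth. Adult replicates 1, 2 and 3 had 4927, 18155 and 8679 clusters at an FPKM of at least 1, and the nymph libraries 14040, 10862 and 11693. Of the 79 members, 32 were listed at 0 in adult replicate 1 and 8 in adult replicate 2, against 12 to 25 in the other libraries. For the comparison, libraries were rescaled by their median ratio over clusters above 0 in all 6, which multiplied adult replicate 1 relative to the others (factors to divide by 0.2835, 1.643 and 1.559 in adults, against 1.022, 1.361 and 0.9902 in nymphs). The log2 differences given below are adult minus nymph on log2(rescaled FPKM + 1), with the standard error of limma. Testing was limited to clusters that reached 1 FPKM in 3 or more libraries, and 62 members passed that filter. Of the 17 that did not, 13 were shorter than 400 bases.

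Across all 11961 clusters tested, 12 were higher in adults and 16 lower at a limma adjusted p under 0.05, which is 0.234% of those tested (0.1% higher and 0.134% lower). Rescaling to an equal total over clusters matching the stink bug genera gave 14 higher and 29 lower. The median log2 difference of all tested clusters was -0.29, and 61.6% lay below 0. Of the 62 members tested, 1 was higher in adults, 0 were lower, 34 lay below 0, and their median was -0.22. At an unadjusted p under 0.05, limma had 2 members higher and 1 lower, against 2.95% and 6.09% of all tested clusters. All 3 adult libraries lay above all 3 nymph libraries in 4 members and below them in 12, on rescaled FPKM. Over all tested clusters those shares were 3.95% above and 10.1% below.

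Clusters named for venom proteins, 72 in all, summed to between 43690 and 336300 FPKM in each library, as the tissue label implies. Markers of other tissues were present at far lower sums. In bulk RNA, fewer cells of a type and less RNA per cell cannot be told apart.

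The 1 member that differed between the stages was a medium-chain acyl-CoA dehydrogenase, which takes the first step of oxidation for chains of medium length. Cluster-9520.6264 stood at 16.9, 103 and 39.6 FPKM in adult replicates 1, 2 and 3 and at 0.36, 1.36 and 2.34 in nymph replicates 1, 2 and 3. Behind these lie 345, 2237 and 1087 fragments in adults and 8, 38 and 62 in nymphs, so every adult library exceeded every nymph library on FPKM and in fragments. On rescaled FPKM the mean was 49.1 ± 20.6 (SD, n = 3) in adults and 1.24 ± 1.03 in nymphs, a ratio of 39.7, and the log2 difference was 4.48 ± 0.59 (SE, limma adjusted p = 0.014). By mean rescaled FPKM it ranked 1 of the 23 oxidation clusters in adults and 22 in nymphs. Leaving out adult replicate 1 gave a limma adjusted p of 0.11, and leaving out adult replicate 2 gave 0.17. Dropping nymph replicate 1 gave 0.063 and dropping nymph replicate 2 gave 0.077. After rescaling to an equal total FPKM it was 0.18.

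A further cluster of the same name followed another course. Cluster-9520.7636, whose best protein and mRNA matches are a different Nezara protein and a different Halyomorpha locus, was at 2.04, 13.3 and 38.7 FPKM in adults, against 25.4, 35.0 and 27.2 in nymphs. It did not pass the test (log2 difference -1.12 ± 0.57, limma adjusted p = 0.63). Adult replicate 3 and nymph replicate 1 were both at 24.8 after rescaling, and the other 2 adult libraries lay well below them, at 7.2 and 8.09.

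The ratio of the 2 clusters inside a library needs no rescaling between libraries. Chosen after the values were seen, it is given as a description. Cluster-9520.6264 was 8.26, 7.74 and 1.02 times Cluster-9520.7636 in adults and 0.0142, 0.0389 and 0.0862 times it in nymphs. It made up 89.2%, 88.6% and 50.6% of the FPKM of the pair in adults and 1.4%, 3.74% and 7.93% in nymphs. The pair summed to a rescaled FPKM of 66.7, 70.7 and 50.2 in adults, against 25.2, 26.7 and 29.8 in nymphs. The stages did not overlap in the ratio. In the sum they were apart only after rescaling, since adult replicate 1 had the lowest deposited sum of all libraries, at 18.9 FPKM beside 25.7 or more in nymphs.

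**Figure D1:**
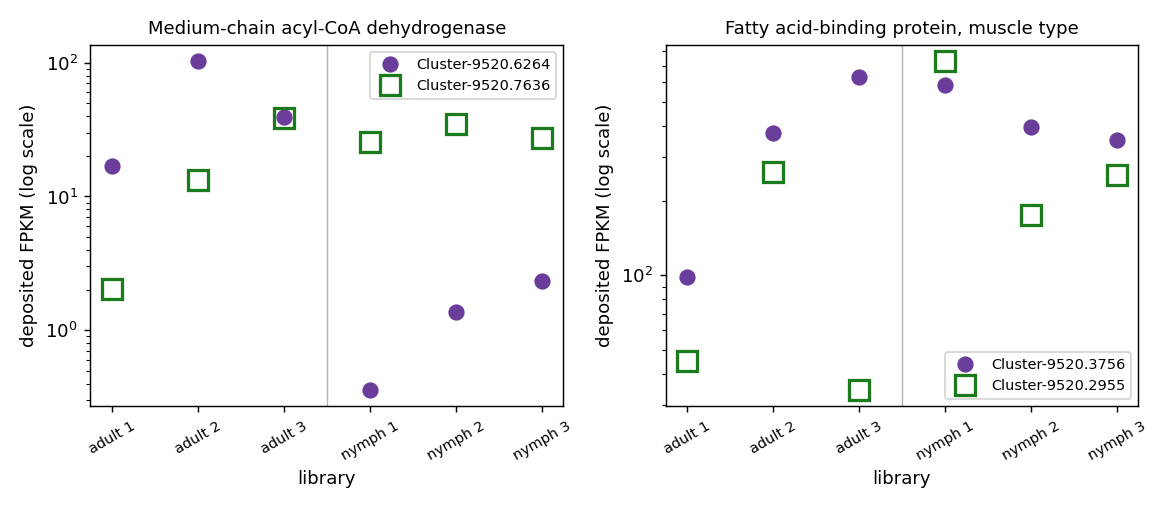
Deposited FPKM (log axis) of the 2 medium-chain acyl-CoA dehydrogenase clusters (left) and the 2 muscle-type fatty acid-binding protein clusters (right) in each of the 6 libraries, 1 point per cluster and library. On the left, Cluster-9520.6264 lies at 16.9 FPKM or more in every adult library and at 2.34 or less in every nymph library, and the 2 clusters nearly coincide in adult replicate 3. On the right, Cluster-9520.2955 is at 34.6 FPKM in adult replicate 3, where Cluster-9520.3756 is at 631.

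None of the other dehydrogenases passed the test. Short/branched chain acyl-CoA dehydrogenase (Cluster-9520.4990), known in mammals for its part in isoleucine breakdown, had the highest mean FPKM of all oxidation members. It was at 5.37, 68.7 and 67.5 FPKM in adults, against 49.5, 96.0 and 60.0 in nymphs, and all adult libraries lay below the nymph libraries only after rescaling (log2 difference -0.84 ± 0.52, limma adjusted p = 0.73). Short-chain acyl-CoA dehydrogenase (Cluster-9520.1550), for the shortest chains, was at 0.61, 7.48 and 1.22 FPKM in adults, against 4.97, 7.7 and 6.21 in nymphs. Very long-chain acyl-CoA dehydrogenase (Cluster-9520.2790), which opens the oxidation of long chains, had a log2 difference of 0.01 ± 0.59, with overlapping stages.

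Among the hydroxyacyl-CoA dehydrogenases, which the text rule placed in the same class, Cluster-8930.0 had the lowest log2 difference. It matches HSD17B8, known in mammals as a subunit of the 3-ketoacyl-acyl carrier protein reductase of mitochondrial fatty acid synthesis. It was listed at 0 in adult replicate 1, at 6.27 and 6.01 FPKM in the other adult libraries and at 11.6, 6.41 and 10.2 in nymphs (log2 difference -1.7 ± 0.76, limma adjusted p = 0.54). Its adult libraries lay below its nymph libraries, also on FPKM as deposited, where the nearest values were 6.27 and 6.41. With an equal total FPKM, or an equal total over stink bug clusters, the stages overlapped. The homolog of worm B0272.3 (Cluster-6733.0) had a log2 difference of -1.36 ± 0.61 (limma adjusted p = 0.55), and type-2 hydroxyacyl-CoA dehydrogenase (Cluster-9520.5466) one of -0.6 ± 0.86.

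Each protein of the carnitine shuttle was represented by 1 cluster, and none passed the test. Carnitine palmitoyltransferase 1 (Cluster-9520.5300), which commits a fatty acid to the mitochondrion, was at 0.64, 5.13 and 5.44 FPKM in adults, against 8.88, 6.31 and 4.95 in nymphs. After rescaling, its adult libraries ranged from 2.26 to 3.49 and its nymph libraries from 4.64 to 8.69 without overlap (log2 difference -0.81 ± 0.58, limma adjusted p = 0.74). The carnitine/acylcarnitine carrier of the inner membrane (Cluster-11081.0) had a log2 difference of 0.41 ± 0.57, and carnitine palmitoyltransferase 2 (Cluster-9520.5903), which frees the acyl group inside, one of -0.59 ± 0.76, both with overlapping stages. A piece of 333 bases (Cluster-11233.0) was placed here by its match to a plant carnitine transporter, while its ortholog label names SV2. It was above 0 in nymph replicate 1 alone and was not tested.

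Among the 10 enzymes of the later steps, 8 lay below 0 and none passed the test. Mitochondrial enoyl-CoA hydratase (Cluster-9520.5585), which hydrates the double bond, was at 6.86, 47.1 and 40.8 FPKM in adults, against 41.8, 41.1 and 39.0 in nymphs. Rescaled, this became 26.3 ± 2.25 (SD, n = 3) in adults and 36.8 ± 5.77 in nymphs (log2 difference -0.46 ± 0.47, limma adjusted p = 0.80). The trifunctional enzyme, which carries out the last 3 steps on long chains, has an alpha and a beta subunit, here 1 cluster each. Beta (Cluster-9520.4278) was at 2.33, 29.1 and 30.3 FPKM in adults, against 20.8, 45.1 and 32.5 in nymphs (log2 difference -0.94 ± 0.53, limma adjusted p = 0.70). Alpha (Cluster-9520.4840) was at 4.56, 28.5 and 31.7 FPKM in adults, against 21.3, 40.6 and 25.8 in nymphs. The ratio of alpha to beta was 1.96, 0.981 and 1.05 in adults, against 1.02, 0.901 and 0.793 in nymphs, close to 1 in all libraries but adult replicate 1, where beta had 51 fragments. Mitochondrial 3-ketoacyl-CoA thiolase (Cluster-9520.4694), which releases acetyl-CoA, had a log2 difference of -0.64 ± 0.47. These 4 clusters had all adult libraries below all nymph libraries after rescaling, and the other 6 of this class overlapped between the stages. Among those 6, the isomerases that handle unsaturated chains ran from -1.06 (Cluster-10888.0) to 0.44 (Cluster-9520.2823).

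**Figure D2:**
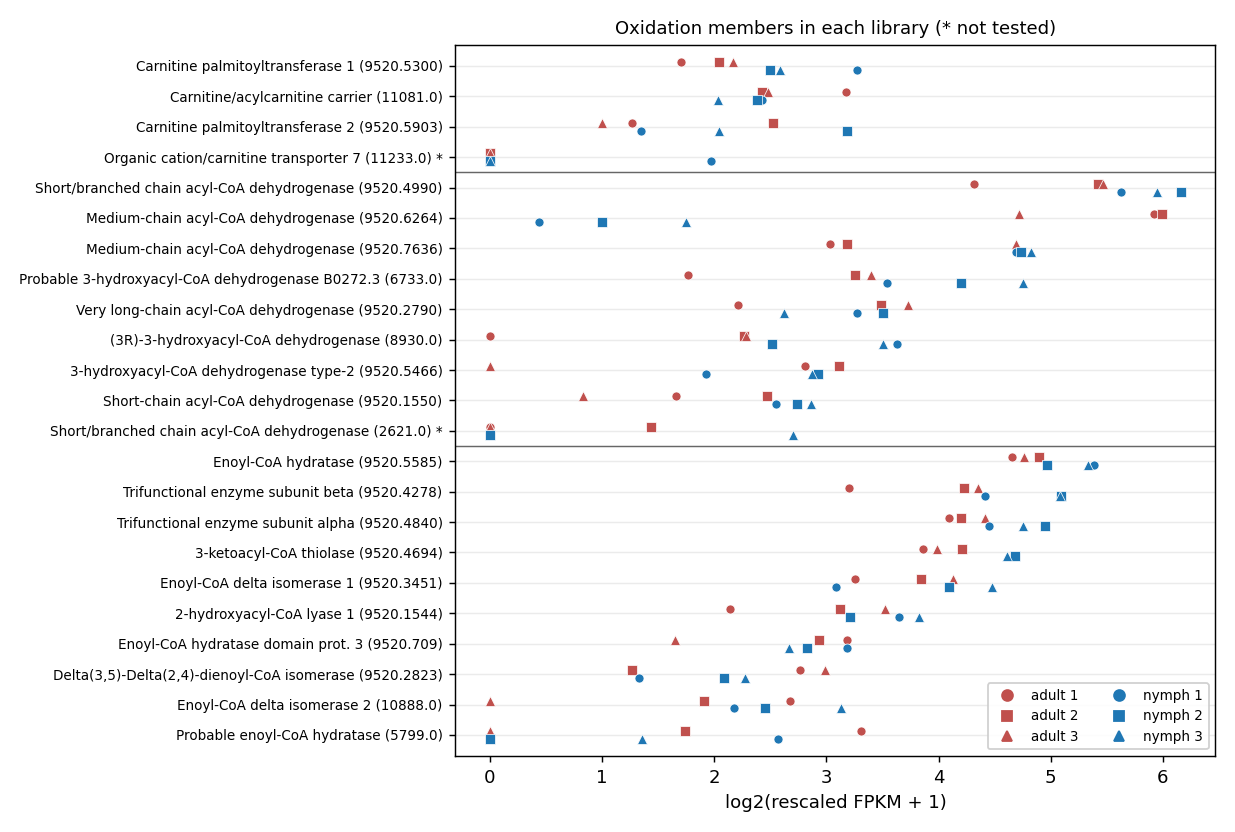
log2(rescaled FPKM + 1) of the 23 oxidation clusters, 1 point per library (adults red, nymphs blue, a symbol for each replicate), with lines between the carnitine shuttle, the dehydrogenases and the later steps. Red points lie left of all blue points in 10 of the 21 tested clusters, counting Cluster-9520.7636, where adult replicate 3 and nymph replicate 1 coincide at this scale, and right of them in Cluster-9520.6264 alone.

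Of the 21 oxidation members tested, 16 had a log2 difference below 0 and the median was -0.60, beside -0.29 for all tested clusters. The adult libraries lay wholly below the nymph libraries in 10 of the 21 (47.6%), against 10.1% of all tested clusters. This count includes Cluster-9520.7636, with its near tie of 2 libraries, and Cluster-8930.0, whose mammalian match acts in mitochondrial fatty acid synthesis. Without both it is 8 of 19, which still holds Cluster-9520.4990, whose match is known in mammals for isoleucine breakdown. The count of 10 rests on the rescaling. It was 1 of 21 on FPKM as deposited (6.6% of all clusters), 0 after rescaling to an equal total (5.36%), 4 with an equal total over stink bug clusters (14.6%) and 4 after quantile normalization (9.05%). The median stayed below that of all clusters under each of these scalings, by 0.31 with the main one (-0.31) and by 0.35 to 0.53 with the others (-0.35 to -0.53). The gap shrank to -0.10 without adult replicate 3 and to -0.13 with a pseudocount of 0.1. Besides Cluster-9520.6264, no oxidation member passed the test, and Cluster-8930.0 was the single one with an unadjusted limma p under 0.05 and a value lower in adults, and its match, HSD17B8, is the synthesis subunit named above.

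Muscle, which oxidizes fatty acids, left transcripts in these glands. Its 27 marker clusters summed to a rescaled FPKM of 256, 63.8 and 132 in adults, against 215, 211 and 428 in nymphs, and each library had 5 to 12 of them at 0. Of 19 tested, 5 lay wholly lower in adults and 2 wholly higher, against 10.1% and 3.95% of all tested clusters, and 0 passed. By log2 difference, 14 of the 19 lay below 0 (against 61.6% of all tested clusters), with a median of -0.82 beside -0.29. The 2 that lay higher (Cluster-9812.0 and Cluster-3636.0) both match titin. Other titin-named clusters went both ways, and every tested marker not named titin lay below 0, from -2.28 (Cluster-6680.0) to -1.19 (Cluster-9520.5517). The sums take in short titin pieces such as Cluster-150.0, of 349 bases, at 17.8 FPKM in adult replicate 1 and listed at 0 in every nymph library. Muscle myosin heavy chain (Cluster-9520.4284) was at 2.98, 9.04 and 7.87 FPKM in adults, against 21.9, 25.1 and 23.1 in nymphs, without overlap. The part of muscle in the values of the oxidation members was not tested.

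Uptake and activation were highest in 1 library of each stage. Fatty acid transport protein 4 (Cluster-9520.5869), which takes up long chains and joins them to coenzyme A, was at 1.5, 27.2 and 4.07 FPKM in adults, against 14.0, 0 and 1.97 in nymphs. Long-chain-fatty-acid--CoA ligase 4 (Cluster-9520.2373), which activates fatty acids, was at 1.68, 29.7 and 3.29 FPKM in adults, against 6.24, 1.37 and 1.57 in nymphs (log2 difference 1.16 ± 0.81, limma adjusted p = 0.74). In both, adult replicate 2 and nymph replicate 1 were the highest of their stages, which are also the libraries with the most clusters detected. Both transport protein 1 clusters (Cluster-9520.6295 and Cluster-9520.2332) likewise peaked in those libraries. The 4 tested members had a median of 0.90, all with overlapping stages. The other 4, from 327 to 660 bases, were above 0 in 2 libraries each, all highest in nymph replicate 1.

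Acyl carriers were the most abundant members. Fatty acid-binding proteins are small cytosolic proteins that carry fatty acids through the cell, and the muscle type is best known from locust flight muscle. Of its 2 clusters, which match different Halyomorpha loci, Cluster-9520.3756 was at 98.8, 374 and 631 FPKM in adults, against 586, 395 and 351.1 in nymphs. Rescaled, it was at 327 ± 90.4 (SD, n = 3) in adults and 406 ± 148 in nymphs (log2 difference -0.29 ± 0.54). Cluster-9520.2955 was at 45.2, 262 and 34.6 FPKM in adults, against 732, 175 and 255 in nymphs (log2 difference -1.78 ± 0.87, limma adjusted p = 0.61). The first was 2.18, 1.43 and 18.3 times the other in adults and 0.8, 2.26 and 1.38 times in nymphs. Adult replicate 3 stood apart in that ratio, with 3471 fragments of the first and 164 of the other, and the stages overlapped.

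The acyl-CoA-binding proteins, which hold activated fatty acids, did not pass either. The homolog of the small cytosolic form (Cluster-9520.3857) was at 19.8, 92.5 and 13.7 FPKM in adults, against 362, 32.7 and 146 in nymphs (log2 difference -1.68 ± 1.01). At 386 bases it is short, and FPKM of short clusters compare less well between libraries. Domain-containing protein 5 (Cluster-9520.7282), a tether of peroxisomes in mammals, was the carrier without overlap, at 0.84, 7.4 and 1.7 FPKM in adults, against 7.05, 12.8 and 6.86 in nymphs, where only rescaling set the stages apart (log2 difference -1.28 ± 0.60, limma adjusted p = 0.59). All 5 carriers lay at or below -0.29 and their median was -1.28. The muscle markers given above are again beside these values, and their part was not tested.

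Lipid droplets are coated by perilipins. Lipid storage droplets surface-binding protein 2 (Cluster-9520.3723), known in Drosophila for shielding stored fat from lipases, was at 7.75, 98.8 and 22.2 FPKM in adults, against 29.0, 33.5 and 24.0 in nymphs. It was even across the nymph libraries, at 25.7 ± 2.31 (SD, n = 3) after rescaling, and spread widely in adults, at 33.9 ± 23.7 (log2 difference 0.16 ± 0.59, limma adjusted p = 0.95). Protein 1 had 2 clusters at low levels, of which Cluster-12487.0 was at 0, 1.57 and 6.54 FPKM in adults, against 6.42, 1.57 and 1.58 in nymphs.

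Synthesis transcripts were scarcer and more broken up than those of oxidation. Over the 17 synthesis clusters of at least 400 bases, between 215 fragments (adult replicate 1) and 1815 (adult replicate 3) were recovered per library, against 1171 to 12285 over 21 oxidation clusters. Fatty acid synthase, a long single chain with all activities of palmitate synthesis, was split into 9 clusters with 7338 bases in all. The 7 of them with a Halyomorpha mRNA as best match fell on 2 loci. Their FPKM summed to 17.2, 25.2 and 56.4 in adults, against 39.3, 40.0 and 7.74 in nymphs, with 4, 0 and 3 of the 9 listed at 0 in adults and 3 in each nymph library. The tested pieces ran from a log2 difference of -2.27 (Cluster-10260.0) to 1.66 (Cluster-2774.0). Most lay above 0, but no direction is shared by all, and none passed the test. Cluster-10260.0, of 333 bases, was at 0, 4.54 and 0 FPKM in adults, against 28.7, 18.3 and 0 in nymphs (log2 difference -2.27 ± 1.19, limma adjusted p = 0.65). Cluster-7549.0 was at 1.84, 1.77 and 1.72 FPKM in adults, against 1.03, 0.86 and 0.68 in nymphs, without overlap, on 9 to 24 fragments per library (log2 difference 0.86 ± 0.77, limma adjusted p = 0.77). The longest, Cluster-9520.895 of 2328 bases, was at 0.49, 4.73 and 11.3 FPKM in adults, against 2.75, 3.79 and 1.09 in nymphs.

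Acetyl-CoA carboxylase, the rate-setting enzyme of synthesis, was split into 5 clusters, which summed to 0.67, 12.3 and 36.7 FPKM in adults, against 19.6, 13.5 and 4.62 in nymphs. In adult replicate 1, 4 of the 5 were listed at 0. Cluster-9939.0, of 361 bases, gave 26.0 of the 36.7 FPKM in adult replicate 3 and was listed at 0 in adult replicate 1 and nymph replicates 2 and 3. Cluster-9638.0, the longest at 3291 bases, had a log2 difference of -1.22 ± 0.79 (limma adjusted p = 0.73).

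Of the elongation cycle in the endoplasmic reticulum, the last enzyme stood out by its values. The very-long-chain enoyl-CoA reductase art-1 (Cluster-9520.657), which completes each added unit, was at 3.07, 12.4 and 18.2 FPKM in adults, against 3.72, 1.56 and 0.96 in nymphs. Rescaled, it was at 10.02 ± 2.17 (SD, n = 3) in adults against 1.92 ± 1.49 in nymphs, and every adult library was above every nymph library. It did not pass (log2 difference 2.01 ± 0.61, limma adjusted p = 0.31), and adult replicate 1 and nymph replicate 1 overlapped on FPKM as deposited and after an equal total. Taken over the enoyl-CoA hydratase of oxidation in the same library (Cluster-9520.5585), a pair chosen after the values were seen, it was at 0.448, 0.263 and 0.446 in adults, against 0.089, 0.0379 and 0.0246 in nymphs.

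None of the other elongation members tested passed, and their stages overlapped. An elongase named after Aedes AAEL008004 (Cluster-10139.0) was at 0, 0.74 and 27.2 FPKM in adults, against 2.52, 10.7 and 0.64 in nymphs, and a second (Cluster-9520.7449) at 1.85, 12.7 and 1.74 and at 3.22, 0 and 0.26. The dehydratase hpo-8 (Cluster-9520.1057), the third enzyme of the cycle, had a log2 difference of 1.16 ± 0.97. Both clusters of the 3-oxoacyl-CoA reductase, its second enzyme, were under 400 bases. The only desaturase (Cluster-5910.0) is named delta-9 by its Swiss-Prot match and delta-11 by its Halyomorpha match. It was at 0, 3.71 and 0 FPKM in adults, against 3.18, 3.12 and 1.45 in nymphs (log2 difference -1.12 ± 0.75).

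**Figure D3:**
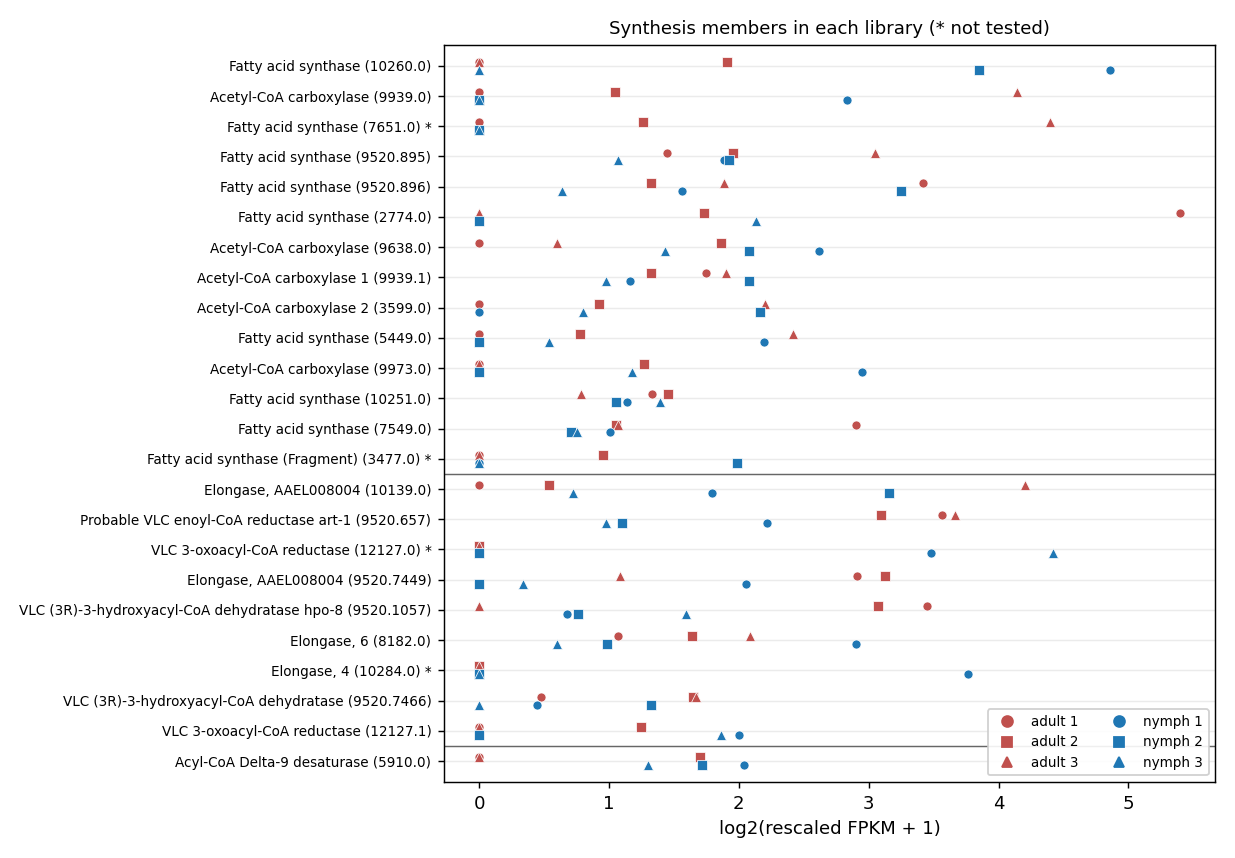
log2(rescaled FPKM + 1) of the 24 synthesis clusters, 1 point per library (adults red, nymphs blue, a symbol for each replicate), with lines between cytosolic synthesis, elongation and the desaturase. In Cluster-9520.657 and Cluster-7549.0 all red points lie right of all blue points, and many other clusters have points at 0.

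Of the 20 synthesis members tested, 13 lay above 0 and 7 below, with a median of 0.20 beside -0.29 for all tested clusters. Adults lay wholly above nymphs in 2 of 20 (against 3.95% of all clusters) and wholly below in 0 (against 10.1%), or in 2 with an equal total over stink bug clusters. The count above was 1 on FPKM as deposited, 0 with an equal total, 1 with an equal total over stink bug clusters and 2 after quantile normalization. Without nymph replicate 3 the median was -0.0043 over the 16 still tested, beside -0.21 for all clusters. Under the other 4 scalings the median was 0.04 to 0.39 and stood 0.47 to 0.69 above that of all clusters.

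Inside each library, summed synthesis FPKM was 0.429, 0.195 and 0.388 times summed oxidation FPKM in adults and 0.378, 0.171 and 0.123 times in nymphs. Oxidation thus exceeded synthesis in all 6 libraries, and the stages overlapped. The log2 ratio was 0.67 higher in adults, less than the pooled SD of 0.73 between libraries of a stage. With medians of tested members in place of sums the difference was -0.052. Over clusters of at least 400 bases it was 1.10 with a pooled SD of 0.722, and adult ratios of 0.163 to 0.238 lay just above nymph ratios of 0.0453 to 0.16. With 1 cluster per KO identifier, an ortholog label, it was 1.26 with a pooled SD of 0.889, and the stages overlapped. Keeping the longest cluster takes Cluster-9520.6264, high in adults, out of the oxidation sum, which raises the adult ratios by construction.

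Fatty acyl-CoA reductases turn acyl-CoA into fatty alcohols for waxes. The homolog of Drosophila CG8306 (Cluster-9520.1345) led them at 3.22, 43.3 and 18.9 FPKM in adults, against 14.7, 6.19 and 4.18 in nymphs (log2 difference 1.11 ± 0.61, limma adjusted p = 0.69). After rescaling, adult replicate 2 was its highest library at 26.4, and nymph replicate 1 at 14.4 lay above the other 2 adult libraries. A wax alcohol acyltransferase homolog (Cluster-10837.0), which joins such alcohols to acyl groups, was the member of this class without overlap after rescaling, at 3.23 ± 0.641 (SD, n = 3) in adults and 1.86 ± 0.424 in nymphs (log2 difference 0.56 ± 0.64, limma adjusted p = 0.81). Cluster-2855.0, a piece of 311 bases, was at 26.9 FPKM in adult replicate 3 and listed at 0 elsewhere. The 8 clusters summed to a rescaled FPKM of 35.8, 42.0 and 35.8 in adults, against 18.2, 9.22 and 15.9 in nymphs. Single pieces carry much of this, Cluster-2855.0 with 17.3 in adult replicate 3 and Cluster-2379.0, of 543 bases, with 20.7 in adult replicate 1. Without these 2 the sums were 15.1, 39.5 and 18.5 in adults, against 18.2, 9.22 and 13.2 in nymphs, and the stages overlapped. The deposited sum of all 8 was 10.2 FPKM in adult replicate 1, below all nymph libraries. Cytochrome P450 4g15 (Cluster-9520.1214) was the 1 cluster that a name pattern listed for oenocytes, and whether it marks them here is not known. It was at 11.6 FPKM in adult replicate 2 and at 0.23 or less in the others. The part of oenocytes in these values was not tested.

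**Figure D4:**
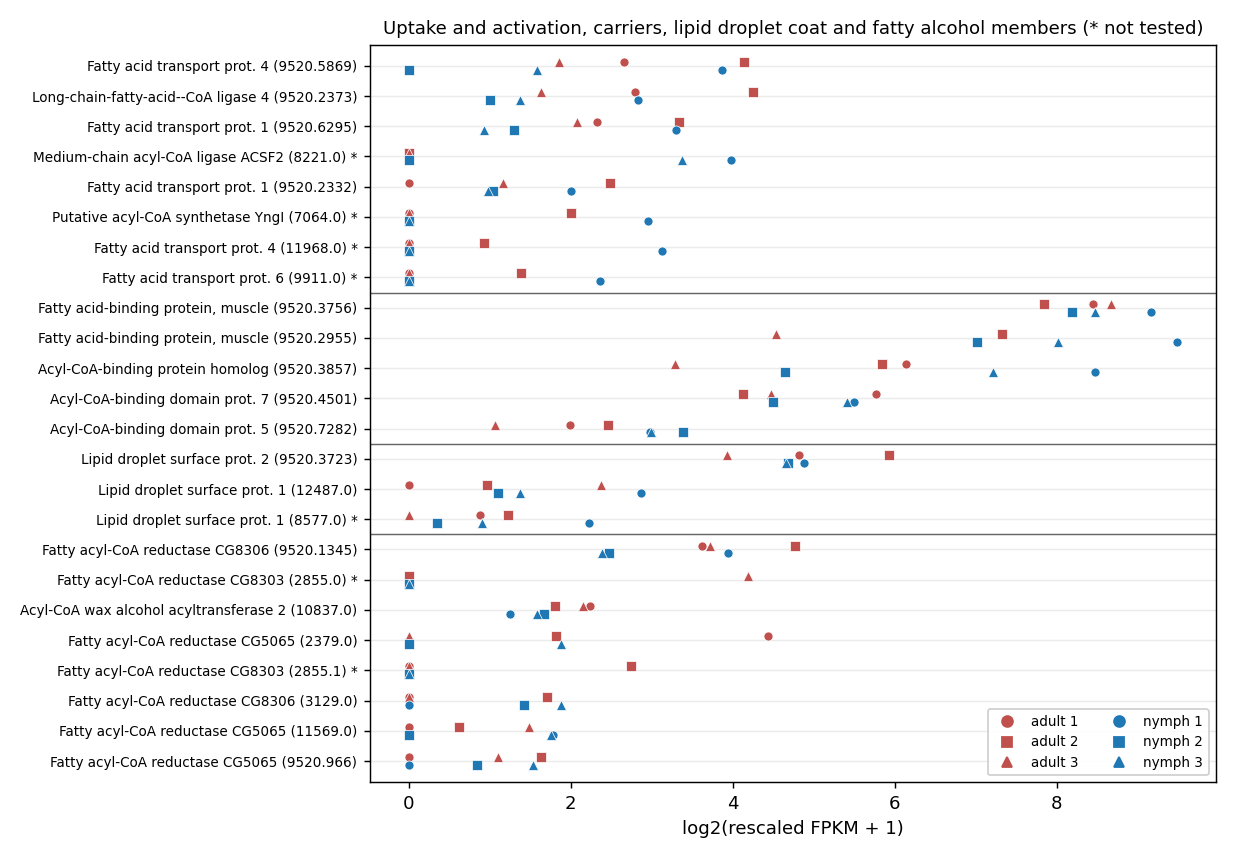
log2(rescaled FPKM + 1) of 24 clusters for uptake and activation, acyl carriers, lipid droplet coat and fatty alcohols, from top to bottom, 1 point per library (adults red, nymphs blue). The fatty acid-binding proteins lie farthest right, and adult replicate 2 and nymph replicate 1 lead the uptake clusters at the top.

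Fat body markers, 9 clusters, summed to a rescaled FPKM of 57.2, 1.13 and 37.1 in adults, against 28.5, 24.3 and 30.2 in nymphs, each with 3 to 5 clusters at 0. The list took in a vitellogenin receptor piece by its name (Cluster-1537.0), a gene of oocytes, which was at 42.6 FPKM in adult replicate 3 and listed at 0 elsewhere. Without it the sum in adult replicate 3 was 9.81. Vitellogenin-2 (Cluster-309.0), a yolk precursor, was at 5.26, 1.32 and 8.45 FPKM in adults, while every nymph library lists it at 0. Hexamerin (Cluster-9520.5895), a storage protein, was at 2.04, 0.34 and 2.09 FPKM in adults, against 18.0, 22.1 and 13.4 in nymphs. Neither passed the test (limma adjusted p = 0.37 and 0.27), and the part of fat body in the values of the members was not tested. Of the clusters listed by name for neurons and haemocytes, 0 of 10 and 0 of 8 tested passed. The name patterns also took in a synaptobrevin homolog YKT6, extended synaptotagmins, synaptotagmin-like proteins and phenoloxidase-activating enzymes. These lists therefore need not mark those cells.

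The remaining members have other roles. Fatty-acid amide hydrolase 2 (Cluster-9520.5848), which splits fatty acid amides, was at 3.11, 26.3 and 8.42 FPKM in adults, against 11.9, 1.54 and 2.61 in nymphs (log2 difference 1.25 ± 0.74, limma adjusted p = 0.72). A further hydrolase piece, Cluster-35.0 of 364 bases, was at 60.0 FPKM in adult replicate 3 and listed at 0 elsewhere. Alpha-methylacyl-CoA racemase (Cluster-9520.1158), which prepares branched chains for peroxisomal oxidation, averaged 1.23 ± 0.183 (SD, n = 3) rescaled FPKM in adults and 2.57 ± 0.703 in nymphs, without overlap (limma adjusted p = 0.80).

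**Figure D5:**
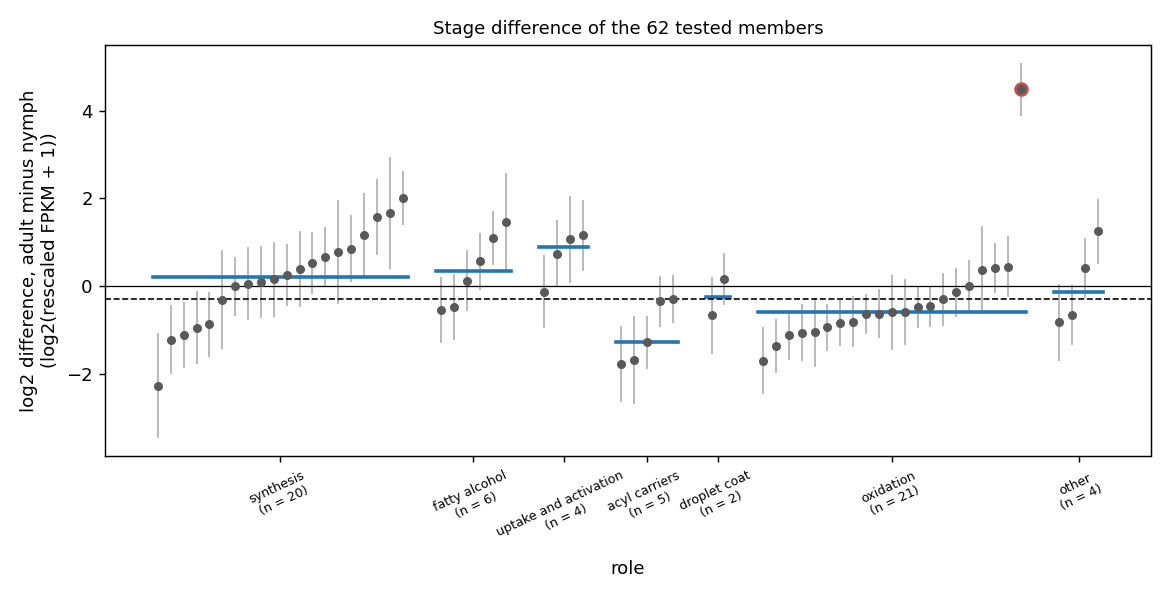
log2 difference (adult minus nymph) with its standard error for the 62 tested clusters, ordered within each role. Blue bars mark the median of each role, the dashed line the median of all tested clusters (-0.29), and the red point Cluster-9520.6264, the 1 cluster past the threshold.

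Genes of lipid metabolism outside the members, 48 clusters in 5 lists, gave no call in either direction among 36 tested by limma, of which 20 lay below 0. Their median was -0.40, near the -0.29 of all clusters. Of the 36, 2 lay wholly higher in adults and 5 wholly lower, against 3.95% and 10.1% of all tested clusters. Oxidation enzymes filed under coenzyme A names were listed with the electron transfer flavoproteins that take electrons from the dehydrogenases. Their median was -0.75, with 9 of 12 below 0, beside 61.6% of all tested clusters. Of the 12, 2 lay wholly lower in adults (against 10.1%) and 0 wholly higher. The name patterns also took in acyl-CoA thioesterases, isovaleryl-CoA dehydrogenase and methyltransferases of the flavoprotein. The beta subunit of that flavoprotein (Cluster-9520.5547) led that list at 10.4, 35.3 and 32.3 FPKM in adults, against 25.5, 69.5 and 27.7 in nymphs. In the list for acetyl-CoA and NADPH supply, 4 of 6 lay below 0, with a median of -0.48. That list had 2 clusters wholly lower in adults (against 10.1%) and 0 wholly higher. Its most abundant cluster, placed there by name, was a cytosolic acetyl-CoA acetyltransferase (Cluster-9520.5187). This cluster was at 17.5, 134 and 114 FPKM in adults, against 39.2, 101 and 58.3 in nymphs (log2 difference 0.38). Among the regulators, the beta-1 subunit of AMP-activated kinase (Cluster-9520.2897), which restrains synthesis at low energy, was the most abundant, at 4.55, 41.2 and 19.6 FPKM in adults, against 11.8, 16.7 and 14.6 in nymphs. Of 6 regulators tested, 2 lay wholly higher in adults (against 3.95%) and 0 wholly lower, with a median of 0.52. Those 2 were the gamma-2 subunit of that kinase (Cluster-9520.7209) and a sterol regulatory element-binding protein cleavage-activating protein (Cluster-1958.0). Neither passed (limma adjusted p = 0.76 and 0.46). The leading clusters of triacylglycerol synthesis (Cluster-9306.1) and of lipolysis and lipid transport (Cluster-85.0) were pieces of 306 and 369 bases, above 0 in 2 libraries each.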

How the data were processed

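RNA was measured in venom glands of 3 adult and 3 nymph libraries. The authors deposited FPKM, 1 column per library, with cluster length and best database matches. The tools listed, per the submitters' processing notes, are DESeq2 1.20.0, HISAT2 2.0.5, fastp, featureCounts 1.5.0-p3 and CASAVA 1.8, without their roles. The assembler and the tool that gave the FPKM are not given in the sources used here.

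The stages were compared on log2(rescaled FPKM + 1) with limma 3.58.1 in R 4.3.3 (trend and robust), adjusted by Benjamini-Hochberg over all 11961 clusters tested, with a threshold of 0.05. Groups came from the stage label. Fold changes of low clusters are understated on this scale. The FPKM divide by length less 217 to 293 bases, an offset that differs between libraries and was fitted so that low values became whole fragments. On clusters of 1100 to 1500 bases, not used in that fit, a whole number of fragments was met to within 0.15 by 99.4% to 99.8% of values, where chance would give 30.0%. Both steps were run on simulated data to check the code. For limma, the simulated noise was independent and equal in all clusters and libraries, so it does not measure power or false calls here. Fragment numbers carry counting error only, and were not given for clusters under 400 bases.

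Members and lists were chosen with earlier results of these data known. By rule the text names members past the threshold, the 2 most abundant per role and, per role, the largest difference each way without overlap. Members named beyond this rule, the marker clusters with values and the ratios were chosen after their values were seen. The role patterns placed hydroxyacyl-CoA dehydrogenases with acyl-CoA dehydrogenases. Alternatives were other pseudocounts, filters and scalings, limma without trend and robust, clusters of at least 400 bases, a replicate block, each library left out, and, chosen after seeing the data, 1 cluster per KO identifier and counts or sums without single named clusters.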

Additional observations from a re-analysis of the deposited data

How the results depend on the processing

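The count of all clusters past the threshold, 28, was 12 with a pseudocount of 0.1, 104 with no filter, 65 with a mean FPKM filter, 72 on FPKM as deposited, 43 with an equal total over stink bug clusters and 43 after quantile normalization. With single libraries left out it ran from 1 to 54. The count of members past it, 1, was 0 with an equal total FPKM and 0 with 1 cluster per KO identifier, which drops the shorter medium-chain dehydrogenase by construction, and 0 to 1 with single libraries left out. Oxidation members lower in adults without overlap, 10, numbered 1 on FPKM as deposited, 0 with an equal total, 4 over stink bug clusters, 4 after quantile normalization, and 9 to 11 with single libraries left out. The oxidation median of -0.60 was -0.75, -0.93, -1.08 and -0.44 under those 4 scalings and ran from -0.75 to -0.46 with single libraries left out. For synthesis the median of 0.20 ran from -0.0043 to 0.62 with single libraries left out. The median of all clusters moved by -0.11, -0.36 and 0.20 with an equal total, an equal total over stink bug clusters and quantile normalization. The log2 ratio of synthesis to oxidation sums, 0.67, was -0.052 with medians, 1.10 over clusters of at least 400 bases, 1.26 with 1 cluster per KO identifier, and 0.33 to 1.13 with single libraries left out. The causes were not tested. With the replicate block, 29 clusters and 1 member passed. Whether same-numbered libraries belong together is not said in the labels. The correlations of same-numbered deviations were 0.165, -0.0427 and 0.213, and those of other pairs ran from -0.275 to 0.151. So few values, which depend on each other, cannot settle it. Cluster-9520.6264 lost its call in 5 of 17 other settings. Synthesis in adult replicate 1 rests on few fragments, with a median of 6 over its clusters of at least 400 bases. Its total of 13333499 fragments was close to the 13346859 of nymph replicate 1, where that median was 25.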

Other observations

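Clusters matching fatty acid synthase of moths were listed at 0 in every adult library. Cluster-7393.0, whose best match is Agrotis segetum, was at 2.49, 0 and 1.47 FPKM in nymph replicates 1, 2 and 3, and Cluster-11090.0, matching Helicoverpa armigera, at 13.7, 5.18 and 0. They carry the description of a member but a moth as first protein match, and were left out of the comparison.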
